A study of Mus musculus with 6 samples.

Results

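Genes for bringing proteins into mitochondria and folding them there were examined in megakaryocyte progenitors of the fetal liver and the adult bone marrow. Members were chosen by name: every gene whose symbol in the platform annotation begins Timm or Tomm, together with Hspd1, Hspe1, Hspa9, Grpel1, Grpel2, Dnajc19, Samm50, Pmpca, Pmpcb, Trap1, Lonp1 and Clpp. Each gene was read on 1 probe set that carries exactly 1 symbol, the one with the highest mean log2 signal over all 6 arrays, a value that does not use the tissue labels. The rule gave 35 of 18193 named genes. Of these, 33 passed the filter on low signal and were tested. The other 2, Timm8a2 and Tomm20l, are described by their signals only. Dnajc19, Tomm5 and Tomm6 were covered only by probe sets that list a second gene and fell outside the rule.

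All 6 samples came from C57BL/6 mice carrying GATA1s, a shortened GATA1 protein that lacks the amino-terminal activation domain of this megakaryocyte and erythroid transcription factor. The bone marrow samples (n = 3) were taken from adults 12 to 18 weeks old and the fetal liver samples (n = 3) at E13.5. Progenitors were isolated by flow cytometry as cells without lineage markers or Sca-1 and with c-kit, CD150 and CD41, and their RNA was hybridised to Affymetrix expression arrays. The comparison asks how these progenitors differ between the fetal and the adult site. Both groups carry the same genotype and no cells with intact GATA1 were analysed here, so the values say nothing about GATA1s itself. Tissue and developmental age changed together and cannot be told apart. The labels do not say how many animals went into a sample, and the p-values measure only the spread between these samples.

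Nearly all mitochondrial proteins are encoded in the nucleus, made in the cytosol and imported as unfolded chains. They enter through the TOM complex of the outer membrane and are handed to the SAM complex for outer membrane barrels, to the small Tim chaperones and the TIM22 complex for carrier proteins, or to the TIM23 complex and its Hsp70 motor for proteins with a cleavable presequence. In the matrix the presequence is removed by the processing peptidase, the chain is folded by Hsp70 and the Hsp60 chaperonin, and damaged proteins are degraded by Lon and ClpP.

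Of the 33 genes tested, 16 (48.5%) were higher in fetal liver by limma with a Benjamini-Hochberg adjusted p under 0.05, and 0 were lower. Over all 11645 genes tested, 17.8% were called higher and 18.3% lower. At an unadjusted p under 0.05, 23 of the 33 were higher and 0 were lower. The fitted difference was above 0 for 32 of the 33, all but Lonp1. The differences were small: the median log2 fold change was 0.24 (1.18-fold), where a positive value, here also called the log2 difference, means more signal in fetal liver, and the largest was 1.54-fold, for Timm8b. Timm8b and Tomm40 were the 2 genes that reached 1.5-fold. The median over all genes tested was 0.04. Import genes are bright on these arrays, so they were also set beside genes of like signal. Among the 2971 genes with a mean signal between 1470 and 4099, the middle range of the import genes, 22.4% were called higher and the median log2 fold change was 0.09. Of the import genes, 17 lay in that range and 10 of them were called higher.

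**Figure D1:**
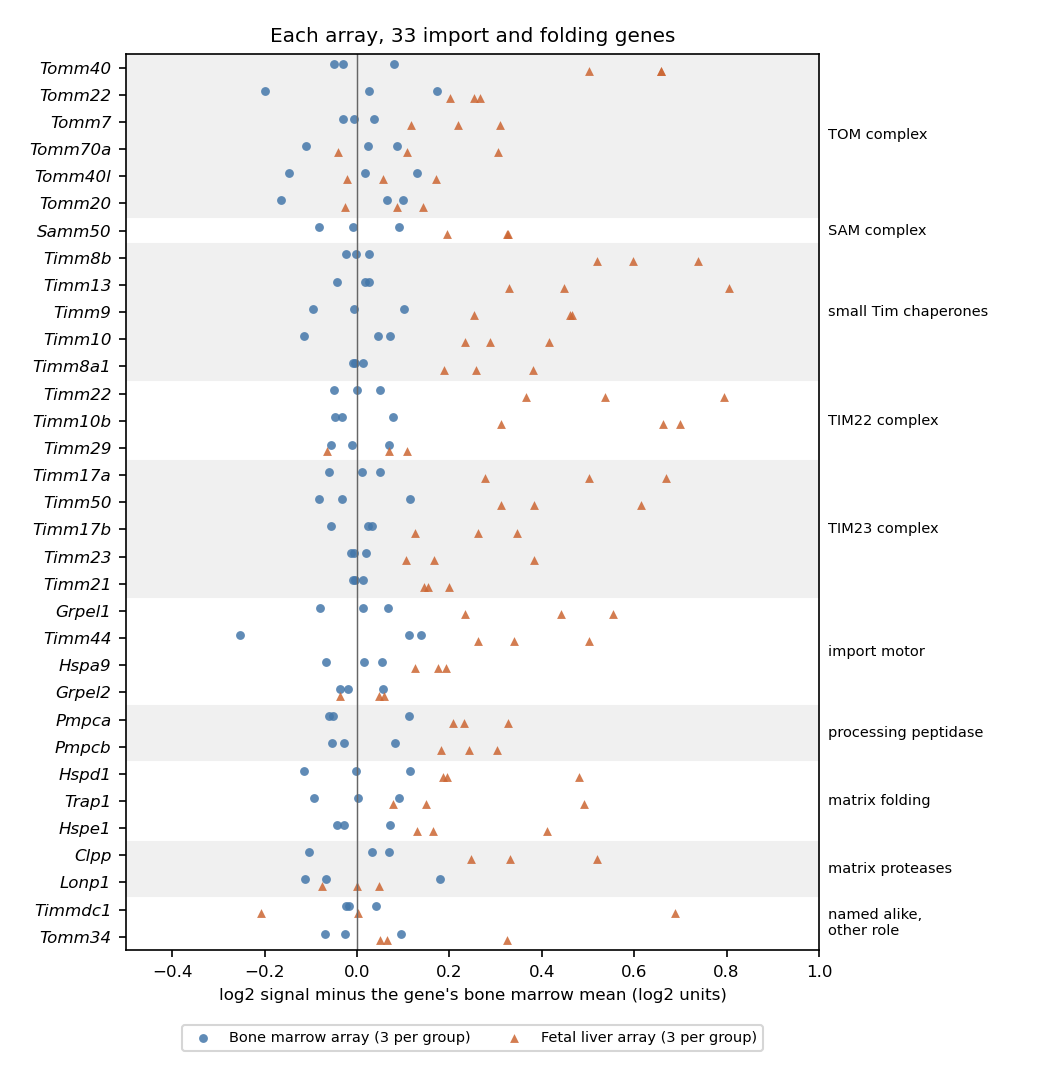
Log2 signal of each of the 33 tested genes on each array, minus that gene's bone marrow mean (x axis, log2 units), grouped by role, with circles for the 3 bone marrow arrays and triangles for the 3 fetal liver arrays. The fetal liver triangles lie to the right of all bone marrow circles for 24 of the 33 genes, among them all 5 small Tim chaperones.

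All 3 fetal liver arrays lay above all 3 bone marrow arrays for 24 of the 33 genes (72.7%), which includes all 16 called genes. The same was true of 26.7% of all genes tested. No gene of the 33 had its bone marrow arrays above all its fetal liver arrays. Among the 17 genes that did not pass the test, 8 had groups that did not overlap. For 7 of the 17 the 95% interval lay above 0 and the adjusted p was between 0.05 and 0.1: Timm17b, Tomm7, Timm44, Hspe1, Timm23, Tomm22 and Hspa9.

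**Figure D2:**
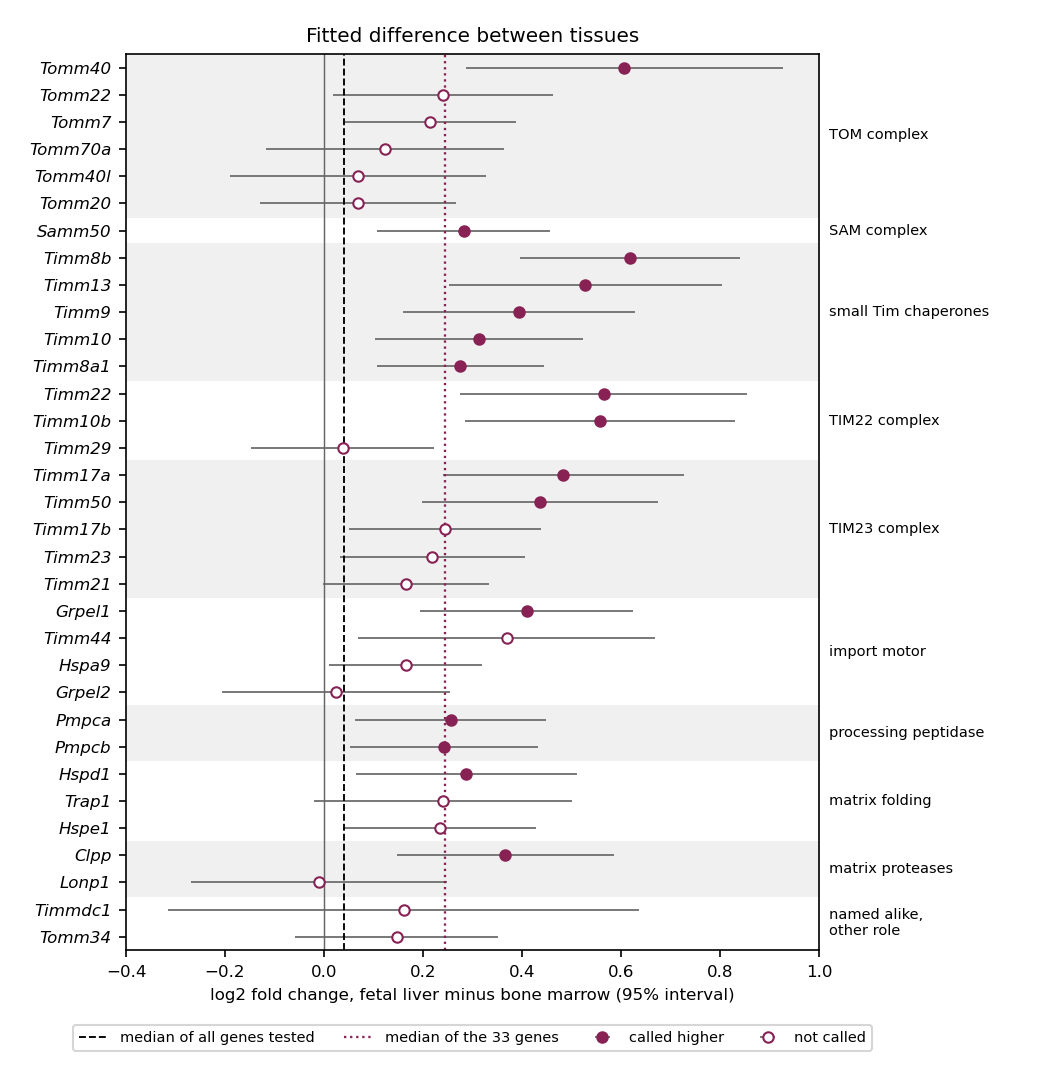
Fitted log2 difference, fetal liver minus bone marrow, with its 95% interval (x axis), for the 33 tested genes grouped by role; filled points passed the test at an adjusted p under 0.05, and the broken and dotted lines mark the medians of all genes and of the 33 genes. Timm8b, Tomm40, Timm22 and Timm10b stand farthest right, and Lonp1, Grpel2 and Timm29 lie near 0.

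All 5 tested small Tim chaperones were higher in fetal liver. These proteins of the intermembrane space form hexamers that carry hydrophobic precursors from TOM to TIM22 or SAM; Timm9 pairs with Timm10, and the Timm8 proteins pair with Timm13. Counts of called genes by role, here and below, are of few genes and stand beside 17.8% of all genes called higher. The small Tims were chosen for display because this role had all its tested members called, as did the SAM complex and matrix processing peptidase. Hspe1 was added because its start region is shared with Hspd1. Stretches of 250 bases just before the annotated start of the 5 small Tim genes, and of Hspe1, are shown. They come from RefSeq, build GRCm38.p6, and are written 5′ to 3′ on the strand of the gene, with capitals for matches to the motifs searched on either strand: the ETS core CCGGAAG, the E-box CACGTG, the Sp1-type box GGGCGG, the NRF1-type element CGCATGCGC and the ERR-type element TCAAGGTCA. Timm8b lies at chr9:50603651-50603900 on the plus strand, Timm13 at chr10:80900970-80901219 on the minus strand, Timm9 at chr12:71136676-71136925 on the minus strand, Timm10 at chr2:84826771-84827020 on the plus strand, Timm8a1 at chrX:134541671-134541920 on the minus strand and Hspe1 at chr1:55087898-55088147 on the plus strand.
Timm8b: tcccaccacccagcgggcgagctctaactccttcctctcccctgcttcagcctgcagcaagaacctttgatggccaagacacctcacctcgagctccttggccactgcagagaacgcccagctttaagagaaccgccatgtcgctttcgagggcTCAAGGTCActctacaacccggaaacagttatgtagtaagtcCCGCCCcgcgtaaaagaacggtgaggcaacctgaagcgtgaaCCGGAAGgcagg
Timm13: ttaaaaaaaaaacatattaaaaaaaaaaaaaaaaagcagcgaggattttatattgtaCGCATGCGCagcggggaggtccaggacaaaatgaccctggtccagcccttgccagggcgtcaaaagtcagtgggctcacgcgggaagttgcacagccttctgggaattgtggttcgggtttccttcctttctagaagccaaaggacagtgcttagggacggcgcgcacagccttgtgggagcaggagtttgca
Timm9: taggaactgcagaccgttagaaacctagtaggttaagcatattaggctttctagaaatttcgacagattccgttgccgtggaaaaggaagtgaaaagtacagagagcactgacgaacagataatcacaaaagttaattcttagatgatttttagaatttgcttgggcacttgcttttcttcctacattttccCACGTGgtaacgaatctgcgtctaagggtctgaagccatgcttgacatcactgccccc
Timm10: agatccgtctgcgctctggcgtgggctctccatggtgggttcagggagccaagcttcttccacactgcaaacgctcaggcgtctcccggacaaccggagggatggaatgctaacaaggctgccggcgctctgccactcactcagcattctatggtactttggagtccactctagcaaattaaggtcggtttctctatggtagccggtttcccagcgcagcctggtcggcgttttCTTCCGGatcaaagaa
Timm8a1: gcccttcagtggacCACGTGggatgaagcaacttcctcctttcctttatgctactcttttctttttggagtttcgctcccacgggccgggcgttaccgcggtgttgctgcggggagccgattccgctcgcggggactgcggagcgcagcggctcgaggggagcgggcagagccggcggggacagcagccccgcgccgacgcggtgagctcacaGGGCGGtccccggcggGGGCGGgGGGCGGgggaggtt
Hspe1: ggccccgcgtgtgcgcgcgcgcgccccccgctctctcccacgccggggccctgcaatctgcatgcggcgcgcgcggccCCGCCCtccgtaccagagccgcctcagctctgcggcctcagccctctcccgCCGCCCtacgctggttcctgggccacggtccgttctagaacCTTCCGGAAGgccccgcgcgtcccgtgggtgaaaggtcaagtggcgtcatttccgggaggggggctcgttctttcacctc

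Timm8b had signals of 1033, 1053 and 1018 on the bone marrow arrays and 1483, 1727 and 1565 on the fetal liver arrays. The bone marrow arrays lay close together and every fetal liver array was well above them. The log2 fold change was 0.62 ± 0.10 (SE, n = 3 each; limma adjusted p = 0.00129), the smallest adjusted p of the 33 genes. Timm13, the partner of the Timm8 proteins, gave 1956, 1965 and 1874 in bone marrow and 2427, 3376 and 2635 in fetal liver (log2 difference 0.53 ± 0.12, adjusted p = 0.00919). Fetal liver array 2 was the highest of the 3, and the lowest fetal liver array was still above the marrow. Timm8a1, the mouse counterpart of the gene mutated in human deafness-dystonia syndrome, gave 4035, 4024 and 4083 against 4835, 5267 and 4613. Its groups did not overlap, and its difference was smaller, at 0.28 ± 0.07 (adjusted p = 0.0190). It was called in 12 of 16 alternative analyses, and its call was lost when any 1 bone marrow array was left out.

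Timm9 gave 1376, 1201 and 1276 in bone marrow and 1772, 1530 and 1765 in fetal liver, a log2 fold change of 0.39 ± 0.10 (adjusted p = 0.0170). Its partner Timm10 gave 1837, 2089 and 2052 against 2429, 2654 and 2340, a log2 fold change of 0.31 ± 0.09 (adjusted p = 0.0278). Neither pair of groups overlapped. Each of the 2 genes was called in 12 of 16 alternative analyses. The Timm9 call depends on the probe set: a dimmer one had a log2 fold change of -0.13 ± 0.17, and the mean of both was 0.13 (adjusted p = 0.349). Timm8a2, the sixth gene of this family on the arrays, had signals of 1.20 to 6.91 over the 6 arrays, all below the level of the unspiked control probe sets, a signal of 10.6.

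In the TIM22 complex, which inserts carrier proteins into the inner membrane, 2 of 3 members rose, against 17.8% of all genes tested. Timm22, its channel, gave 785, 733 and 758 in bone marrow and 977, 1315 and 1100 in fetal liver (log2 difference 0.57 ± 0.13, adjusted p = 0.00852). Timm10b, the small Tim that docks at this complex, gave 1318, 1221 and 1208 against 1549, 2026 and 1975 (log2 difference 0.56 ± 0.12, adjusted p = 0.00661). For both genes the lowest fetal liver array was above the highest bone marrow array. Both calls were lost when all filtered probe sets of a gene were averaged: Timm22 was then at 0.28 (adjusted p = 0.115) and Timm10b at 0.27 (adjusted p = 0.0607). Timm29, a further subunit of the complex, gave 3177, 3360 and 3079 in bone marrow and 3363, 3061 and 3454 in fetal liver. Its arrays were mixed and its log2 fold change was 0.04 ± 0.08 (adjusted p = 0.750), or -0.02 after quantile normalization.

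In the TIM23 complex, which takes up presequence proteins, 2 of 5 members rose, against 17.8% of all genes tested. Timm17a, a channel subunit, gave 2184, 2125 and 2025 in bone marrow and 2558, 3356 and 2989 in fetal liver (log2 difference 0.48 ± 0.11, adjusted p = 0.00777). Timm50, the receptor that receives presequences from TOM, gave 1736, 1991 and 1799 against 2283, 2815 and 2398 (log2 difference 0.44 ± 0.11, adjusted p = 0.0114). Neither gene's groups overlapped, and the spread was wider in fetal liver. Timm17b, the paralogue of Timm17a, had a log2 fold change of 0.24 ± 0.09 and just missed the threshold (adjusted p = 0.0510), with 2562, 2710 and 2725 in bone marrow and 3193, 3389 and 2908 in fetal liver. It lies just outside the threshold, as Pmpcb (adjusted p = 0.0496) lies just inside it. The channel gene Timm23 had a log2 difference of 0.22 ± 0.08 (adjusted p = 0.0662), from 5318, 5417 and 5292 to 5752, 6968 and 5999. Timm21, which links TIM23 to TOM, had a log2 difference of 0.17 ± 0.07 (adjusted p = 0.112), with 2538 to 2577 in bone marrow and 2823 to 2931 in fetal liver. All 3 of these uncalled genes had groups that did not overlap.

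Of the 4 tested genes of the import motor, 1 rose, against 17.8% of all genes tested. With so few genes this count does not set the motor apart from that share. Grpel1, the nucleotide exchange factor of mitochondrial Hsp70, gave 3717, 3355 and 3583 in bone marrow and 4169, 5209 and 4818 in fetal liver (log2 difference 0.41 ± 0.10, adjusted p = 0.00940). Its paralogue Grpel2 gave 859, 850 and 906 against 850, 901 and 907, and its arrays were mixed (log2 difference 0.02 ± 0.10, adjusted p = 0.879). Timm44, which tethers Hsp70 to the channel, had a log2 difference of 0.37 ± 0.13 (adjusted p = 0.0567). Its signals were 1066, 1047 and 812 in bone marrow and 1226, 1161 and 1372 in fetal liver. The groups did not overlap, and bone marrow array 3 lay below the other 2. Hspa9, the Hsp70 itself, was measured at 4909, 5042 and 4636 against 5302, 5490 and 5554, also without overlap, and had a log2 difference of 0.16 ± 0.07 (adjusted p = 0.0886).

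In the TOM complex 1 of 6 tested genes rose, a share close to the 17.8% of all genes tested that were called higher. Tomm40, the channel through which nearly all precursors enter, gave 240, 259 and 237 in bone marrow and 387, 347 and 387 in fetal liver (log2 difference 0.61 ± 0.14, adjusted p = 0.00972). The lowest fetal liver array was well above the highest bone marrow array. The central receptor Tomm22 had a log2 difference of 0.24 ± 0.10 (adjusted p = 0.0853), with 3286, 4254 and 3838 against 4337, 4535 and 4494, and the small subunit Tomm7 one of 0.22 ± 0.08 (adjusted p = 0.0548), with 3859, 3742 and 3685 against 4658, 4376 and 4081. Neither gene's groups overlapped. The receptors Tomm20 (log2 difference 0.07 ± 0.09) and Tomm70a (log2 difference 0.12 ± 0.11) and the channel paralogue Tomm40l (log2 difference 0.07 ± 0.11) had overlapping groups and adjusted p-values of 0.399 to 0.674. Tomm20 turned to -0.01 after quantile normalization. In a fit of every probe set on its own, other probe sets of Tomm22 (0.42), Tomm7 (0.59 and 0.38) and Tomm70a (0.39) were called higher. The other probe sets of Tomm20 and Tomm40l, and the remaining ones of Tomm70a, were not called. Tomm20l did not pass the filter: it gave 17.1, 11.7 and 17.8 in bone marrow, just above the control level, and 8.99, 6.39 and 8.77 in fetal liver, below it on every array. Samm50, the core of the SAM complex and its only member here, rose from 4091, 4614 and 4309 to 5423, 5435 and 4962, without overlap (log2 difference 0.28 ± 0.08, adjusted p = 0.0198).

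Both subunits of the matrix processing peptidase, which cuts off presequences, rose. Pmpca gave 2386, 2674 and 2370 in bone marrow and 2858, 2904 and 3101 in fetal liver (log2 difference 0.26 ± 0.09, adjusted p = 0.0435). Pmpcb, the catalytic subunit, gave 2267, 2100 and 2063 against 2535, 2641 and 2429 (log2 difference 0.24 ± 0.08, adjusted p = 0.0496). Their groups did not overlap. Both lie just inside the threshold and are among the least stable calls: Pmpca was called in 8 and Pmpcb in 6 of 16 alternative analyses.

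Of the 3 folding chaperones of the matrix, 1 rose, against 17.8% of all genes tested. With so few genes this count does not set them apart from that share. Hspd1, the Hsp60 chaperonin, gave 4715, 5528 and 5096 in bone marrow and 5802, 7123 and 5844 in fetal liver (log2 difference 0.29 ± 0.10, adjusted p = 0.0478), and was called in 8 of 16 alternative analyses. Hspe1, its lid Hsp10, gave 6348, 6871 and 6418 against 7154, 8705 and 7330 (log2 difference 0.24 ± 0.09, adjusted p = 0.0594). On both genes fetal liver array 2 stood above the other arrays, and the groups did not overlap. The Hsp90 chaperone Trap1 overlapped between groups, at 0.24 ± 0.12 (adjusted p = 0.137), with 2775, 2949 and 2598 against 2926, 3893 and 3071. Of the 2 matrix proteases, Clpp rose from 2227, 2512 and 2448 to 3011, 3430 and 2839 (log2 difference 0.37 ± 0.10, adjusted p = 0.0170). Lonp1, the Lon protease, was measured at 931, 1139 and 961 against 954, 1041 and 1006, with mixed arrays (log2 difference -0.01 ± 0.11, adjusted p = 0.957). Its sign was not stable, at 0.0096 after quantile normalization and 0.15 after median centring.

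Tomm34 and Timmdc1 share the naming of import subunits but have other roles, a cytosolic co-chaperone and an assembly factor of respiratory complex I. Neither passed the test. Tomm34 had a log2 difference of 0.15 ± 0.09 (adjusted p = 0.243). Timmdc1 had a log2 difference of 0.16 ± 0.21, which rested on fetal liver array 1: its signals were 525, 549 and 528 in bone marrow and 860, 462 and 535 in fetal liver, and without that array the value was -0.10.

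Partners and paralogues were compared by the log2 ratio of 2 genes within each array, in 10 pairs, with an exact two-sided permutation test, which with 3 against 3 arrays cannot go below 0.1. For 5 of the 10 pairs the ratios did not overlap between the tissues, and each had the smallest exact p this design allows, 0.1 (adjusted over the 10 pairs, 0.2). For scale, the signals of single genes did not overlap in either direction for 50.5% of all genes tested. The difference of the log2 fold changes was 0.54 for Tomm40 minus Tomm40l, 0.39 for Grpel1 minus Grpel2 and -0.38 for Lonp1 minus Clpp. It was -0.34 for Timm8a1 minus its paralogue Timm8b and -0.25 for Timm8a1 minus its partner Timm13. Averaging each gene's probe sets moved these last 2 differences to -0.15 and -0.06, and the ratios of Timm8a1 to Timm13 (exact permutation p = 0.6) and of Grpel1 to Grpel2 (0.31, exact permutation p = 0.2) then overlapped. Quantile normalization moved Grpel1 against Grpel2 to 0.25. None of the 10 pairs could pass the threshold in this design.

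The other 5 pairs had overlapping ratios and exact p-values of 0.2 to 0.9. Pmpca and Pmpcb differed by 0.01 (exact permutation p = 0.9), and the SD of their ratio was 0.14 among the bone marrow arrays and 0.12 among the fetal liver arrays. Hspd1 and Hspe1 differed by 0.05 (exact permutation p = 0.2), with SDs of 0.06 and 0.02. Timm9 and Timm10 differed by 0.08 (exact permutation p = 0.7), with SDs of 0.20 and 0.21. The values for Pmpca and Timm9 depended on the probe sets: with a gene's probe sets averaged, Pmpca minus Pmpcb was 0.20 without overlap (exact permutation p = 0.1) and Timm9 minus Timm10 was -0.18 (exact permutation p = 0.2).

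**Figure D3:**
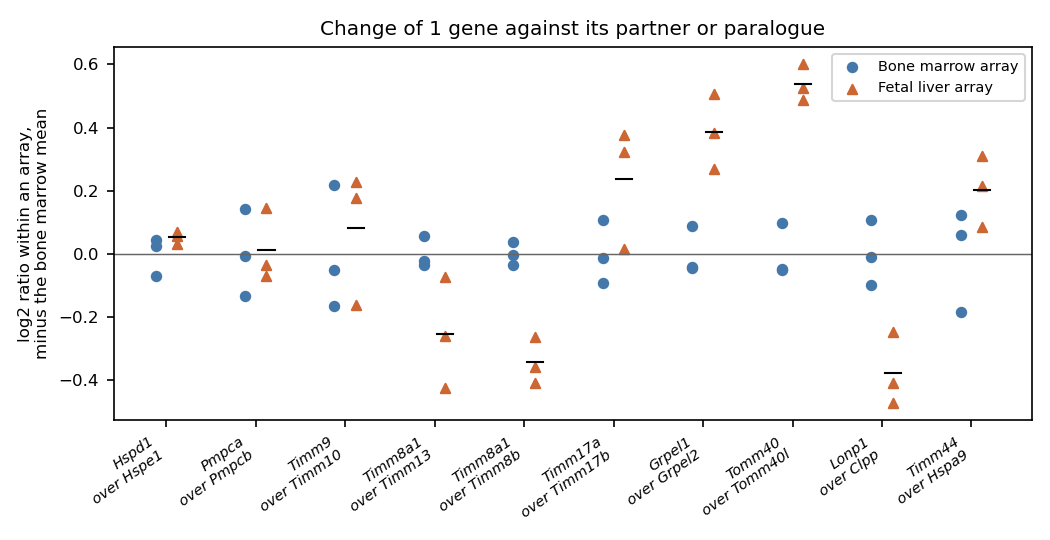
Log2 ratio of 2 genes within each array, minus the bone marrow mean of that ratio (y axis, log2 units), for the pairs compared (x axis), with circles for the 3 bone marrow arrays, triangles for the 3 fetal liver arrays and short bars for the fetal liver mean. Fetal liver triangles lie above the circles for Grpel1 over Grpel2 and Tomm40 over Tomm40l, below them for Timm8a1 over Timm8b and Lonp1 over Clpp, and among them for Pmpca over Pmpcb.

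The remaining probe sets of the same genes give a second reading of each transcript on the same RNA. Of 73 probe sets for the 35 genes, 66 passed the filter, and 33 of these were not the one used, in 20 genes. In a limma fit of every probe set on its own, 31 of the 33 had a value above 0, 12 were called higher and 0 lower (0 also at an unadjusted p under 0.05). Of all 10785 probe sets that were not the brightest of their gene, 10.2% were called higher. The median log2 fold change of the 33 was 0.32, against -0.0043 over the 10785, and 21 of the 33 had a larger value than the brightest probe set of the gene. Pmpca read 0.73 on its second probe set against 0.26 on the brightest, Timm8a1 0.65 against 0.28, and Tomm7 0.59 against 0.22. In this fit 6 genes were called on another probe set and not on the brightest: Tomm22, Tomm7, Tomm70a, Timm44, Pmpca and Pmpcb, the last 2 having passed on the brightest probe set in the fit with 1 probe set per gene. The probe sets that went the other way were 1 each of Timm9 (log2 difference -0.13 ± 0.17) and Timm10b (log2 difference -0.27 ± 0.16), neither called, and the second of Timm22 read 0.00 ± 0.19. All 3 were dim, with mean signals of 267 to 419 in each tissue. The only probe set read for Tomm40, which was called higher, was about as dim. Its mean signals were 245 in bone marrow and 373 in fetal liver.

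**Figure D4:**
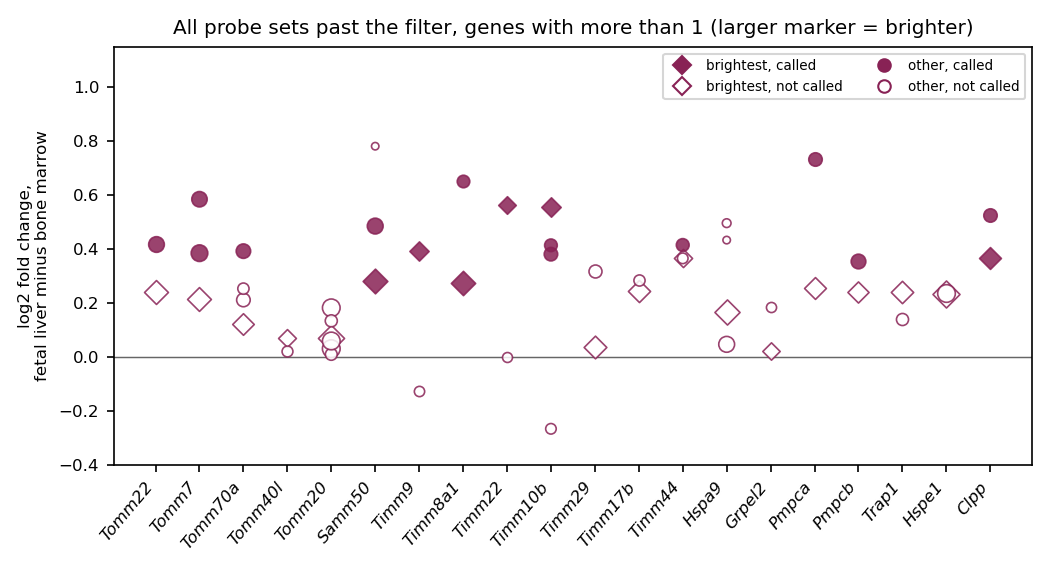
Log2 difference, fetal liver minus bone marrow (y axis), of every probe set past the filter for the genes with more than 1 (x axis). Diamonds are the brightest of a gene, circles the others, and larger markers brighter probe sets. Filled markers were called in the fit of single probe sets. Over all 33 tested genes, drawn or not, 13 of the brightest passed in that fit. Hspd1, Pmpca and Pmpcb passed only in the fit with 1 probe set per gene. The probe sets of Timm9, Timm10b and Timm22 spread most, and 31 of the 33 probe sets that were not the brightest of their gene lie above 0.

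Promoter entries matched 28 of the 33 tested genes and 9502 of the genes tested. CCGGAAG, a core that ETS factors bind, was present in the 250 bases before the start of 13 of the 28 (46.4%) and of 16.0% of all the genes. The 13 were spread over called and uncalled genes, with 6 called. They include both Hspd1 and Hspe1, which share a start region, so 1 site may be counted for both. The share over all genes is not matched for signal. CACGTG, the E-box bound by MYC and related factors, was found in 5 of 28 (17.9%, against 9.93% of all genes), namely Hspd1, Lonp1, Timm8a1, Timm9 and Tomm20. GGGCGG, the Sp1-type box, was found in 17 (60.7%, against 63.5%). The NRF1-type CGCATGCGC was found in Timm13 alone (3.57%, against 3.52% of all genes), and the ERR-type TCAAGGTCA in Timm8b alone (0.326% of all genes). AAGATGGCG (1.48% of all genes) and TGATGCAA (0.695%) had no match in the 28. Among the sequences shown, Timm8b and Timm10 each hold CCGGAAG shortly before the start. Hspe1 holds a pair of overlapping matches on opposite strands, and Timm9 holds CACGTG only. A match describes letters in this window and shows no binding.

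Hspd1 and Hspe1 lie head to head, so the Hspe1 stretch shown is also the start region of Hspd1: of the RefSeq starts of Hspd1, 1 lies 216 bases before that of Hspe1 on the other strand, and another lies inside Hspe1. Of the 28 genes, 13 had an opposite-strand start within 500 bases, a distance chosen after the data were seen, as did 21.4% of all 9502 genes. Neighbours outside the import genes could be tested for 8 members, of which 5 rose. Of the 8 neighbours limma called 0 (1 at an unadjusted p under 0.05), where 17.8% of all genes were called higher and 18.3% lower. The difference between members and neighbours was not tested as a group, and some neighbours were measured with wide error, such as Parg (log2 difference 0.35 ± 0.42). The start of Timm8b lies 52 bases from that of Sdhd, a subunit of respiratory complex II. Sdhd was measured at 4007, 4019 and 4560 in bone marrow and 5336, 2816 and 4496 in fetal liver, with no order between the groups (log2 difference -0.04 ± 0.20, adjusted p = 0.891). The within-array ratio of Timm8b to Sdhd was 0.66 higher in fetal liver, without overlap and with an SD of 0.59 among the fetal liver arrays (exact permutation p = 0.1; a pair added after the data were seen). Fetal liver array 2, with the lowest Sdhd signal, carries much of this value, which was 0.33 without it. The start of Timm10b lies 29 bases from that of Arfip2, which had a log2 difference of 0.09 ± 0.14 (adjusted p = 0.656).

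Other genes of the same pathway were listed by role, with earlier results of these data known. The list also takes in cristae organisers, iron-sulphur cluster chaperones and stress response factors. It gave 11 higher (30.6%) and 1 lower (2.78%) of 36 tested, against 17.8% and 18.3% of all genes tested. Its median log2 fold change was 0.22. All 3 members of the intermembrane space relay, which folds small Tims through disulphide bonds, rose: Chchd4, the oxidoreductase that imports them (log2 difference 0.39 ± 0.10, adjusted p = 0.0133), Gfer, which reoxidises it (log2 difference 0.55 ± 0.13, adjusted p = 0.0108), and Aifm1, its binding partner (log2 difference 0.58 ± 0.13, adjusted p = 0.00864). Chchd4 gave 1654, 1935 and 1677 in bone marrow and 2172, 2427 and 2282 in fetal liver, and its groups did not overlap. Of the outer membrane assembly partners 3 of 4 rose, among them the metaxins Mtx1 (0.38) and Mtx2 (0.55) and Dnajc11 (log2 difference 0.70 ± 0.11, adjusted p = 0.00103). Dnajc11 went from 576, 600 and 640 to 950, 998 and 995. The motor regulator Pam16 (0.34) and the cristae gene Apool (0.56) also rose, the last with a call that was lost when its probe sets were averaged (0.17, adjusted p = 0.485). Romo1, Afg3l1 and Oma1 complete the 11. Afg3l1 lost its call when its probe sets were averaged (0.32, adjusted p = 0.0554), and Oma1, just inside the threshold (adjusted p = 0.0498), was called in 6 of 16 alternative analyses.

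The 1 lower gene of the pathway list was Ddit3, which encodes CHOP, a transcription factor of the integrated and mitochondrial stress responses. It fell from 2639, 1955 and 2601 in bone marrow to 788, 752 and 504 in fetal liver (log2 difference -1.83 ± 0.19, adjusted p = 9.45e-05), without overlap. Atf4 (-0.08) and Atf5 (-0.24), the other stress factors on the list, did not pass the test, and Atf4 turned to 0.08 under median centring.

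Other lists of mitochondrial and chaperone genes are given for scale, beside 17.8% of all genes called higher and 18.3% lower. Of 76 mitochondrial ribosomal protein genes, 53 were higher and 0 lower, with a median log2 fold change of 0.40. Of 85 genes of the respiratory chain and ATP synthase, 26 were higher and 1 lower, with a median of 0.21. Of the 8 genes of the cytosolic chaperonin, 1 was higher (12.5%, below the share over all genes), with a median of 0.23. The difference between these lists was not tested.

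**Figure D5:**
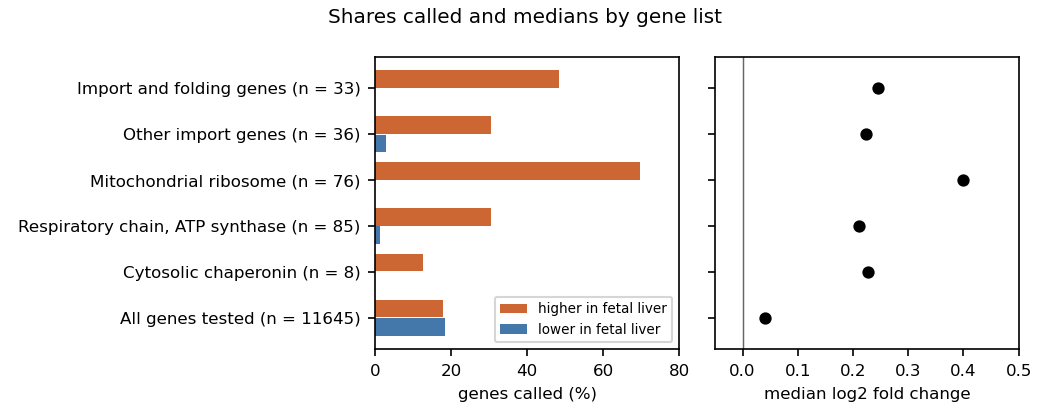
Left, the percentage of genes called higher or lower in fetal liver in each list and over all genes tested (x axis, percent); right, the median log2 fold change of each list. The import and folding genes had 48.5% called higher, between the mitochondrial ribosome (69.7%) and the other pathway genes (30.6%), with 17.8% over all genes. The other pathway genes are labelled other import genes and include stress response factors.

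Several measured features of the arrays and samples moved with these results, and their part in them was not tested. The deposited signals are scaled to 1 trimmed mean. Centring each array on its median moved the median of all genes from 0.04 to 0.20. It raised the number of import genes called higher to 26, with a median of 0.40, and the share of all genes from 17.8% to 31.3%. The distance between the import genes and all genes was 0.20 in both. It was 0.12 after quantile normalization, which called 15 import genes and 20.2% of all genes. Hybridisation spikes, which do not come from the cells, differed between tissues by 0.07 on the log2 scale, and the Actb and Gapdh 3′ control probe sets by 0.17 and 0.22, close to the median import gene.

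The count of import genes called higher also changed when single arrays were left out, as did the count over all genes. Fetal liver array 2 was the highest of its group for 20 of the 33 genes, and bone marrow array 2 was the highest of its own for 21. Among genes of like signal these shares were 40.7% and 42.0%. The spikes of fetal liver array 2 lay 0.17 above those of the other fetal liver arrays. Without this array the spikes differed by 0.01 and 12 import genes were called higher. The count was 8 without bone marrow array 3 and 9 without bone marrow array 1, and it was 10 with a variance prior that has no intensity trend. The median import gene, relative to the bone marrow mean, was at 0.26, 0.33 and 0.19 on the fetal liver arrays and at -0.01, 0.07 and -0.02 on the bone marrow arrays. Grpel1, Timm13, Timm17a, Timm50, Timm8b and Tomm40 were called in all 16 alternative analyses of the brightest or averaged probe sets.

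In sorted bulk RNA, fewer cells of a type and less RNA per cell cannot be told apart. The counts of markers below stand beside 17.8% of all genes called higher and 18.3% called lower. Of the 14 genes on a short mitosis list, 11 rose in fetal liver, and their summed signal was 37816 to 41547 in bone marrow and 53301 to 57576 in fetal liver. Of the 8 tested megakaryocyte markers, 1 was higher and 1 lower, near the shares over all genes. Their sums were 23285 to 25459 in bone marrow and 17559 to 29901 in fetal liver, and none lay below the control level. All 8 granulocyte markers were lower, with sums of 44954 to 56520 in bone marrow and 4258 to 6022 in fetal liver. All 5 tested macrophage markers (sums 2636 to 3176 against 310.0 to 416), 5 of 6 lymphoid markers (3093 to 4528 against 1282 to 1493) and all 4 mast cell and basophil markers (3602 to 3906 against 152 to 278) were lower too. On every fetal liver array C1qc, Cd79a, Cd3e, Fcer1a and Mcpt8 lay below the control level. Of 6 erythroid markers 3 were lower (8262 to 16005 against 5623 to 6813). Of 2 tested hepatoblast markers 1 was lower (sums 294 to 376 against 135 to 209). Of 4 tested endothelial markers 3 were higher (sums 1929 to 2194 against 3342 to 4276). The counts are of tested markers, while the sums take in every measured one, also those below the filter. These were 7 macrophage, 7 lymphoid, 7 hepatoblast and 6 endothelial markers.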

How the data were processed

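RNA of sorted GATA1s megakaryocyte progenitors was measured on 6 arrays, 3 of bone marrow and 3 of fetal liver, which the labels call biological replicates. The authors deposited a linear intensity for each probe set on each array. It comes from MAS5, per the submitters' processing notes, of a version not given in the sources used here. Each array's trimmed mean was 500. Every column was mapped to a sample (0 unmapped).

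Signals were log2-transformed with no offset, so fold changes of dim probe sets are noisy. Probe sets with a mean log2 signal over all 6 arrays above the 40th percentile (a signal of 22.9) were kept, and the brightest probe set with exactly 1 symbol stood for each of 11645 genes. limma 3.58.1 (R 4.3.3) fitted tissue with an intensity-trended variance prior and 4 residual degrees of freedom. P-values were adjusted by Benjamini-Hochberg over all genes tested, with a threshold of 0.05, and errors after ± are standard errors of the log2 fold change. The number of arrays limits the precision. The control level, a signal of 10.6, is the 95th percentile of 27 unspiked control probe sets.

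Every member is named by its role, and of the other pathway genes those called. The members, lists and tests were chosen with earlier results of these data known, so no list was tested as a set and the counts are descriptions. Promoter sequences are RefSeq's (GRCm38.p6), matched by symbol. Python 3.11.15 with numpy 2.4.6, pandas 2.3.3 and matplotlib 3.10.9 made the tables and figures. Alternatives were other filters, scalings, offsets, variance priors, probe sets, a floor at the control level, a replicate block and leaving out each array.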

Additional observations from a re-analysis of the deposited data

How the results depend on the processing

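The number of import and folding genes called lower was 0 in all 16 alternatives, and 15 of the 16 called genes were called in 8 or more of them. Median centring raised the number called higher from 16 to 26, that of other pathway genes from 11 to 22 and the median import gene to 0.40; the first count was 10 with no intensity trend. Leaving out 1 array gave 8 to 17 import genes higher (fewest without bone marrow replicate 3) and 7 to 12 other pathway genes higher. Signs turned for genes near 0: Lonp1 (quantile normalization 0.0096, median centring 0.15, leaving out 1 array -0.066 to 0.080), Timm29 (-0.024) and Tomm20 (-0.015) after quantile normalization, Atf4 (0.076) under median centring, and, over the fits with 1 array left out, Timmdc1 (-0.10 to 0.35), Tomm20 (-0.014 to 0.12) and Tomm40l (-0.0055 to 0.13). Other probe sets of Timm10b (-0.27) and Timm9 (-0.13) were below 0. The causes were not tested. Same-numbered samples of the 2 tissues showed no sign of deviating together (r = -0.08, 0.07 and -0.11 across genes, which are not independent replicates). Differently numbered samples gave r from -0.05 to 0.145. With 3 arrays per group these values cannot exclude a pairing. A fit with the replicate block called 15 import genes higher. The number of arrays limits what can be seen: in the reported fit no import gene with a log2 difference below 0.24 passed the test, while after quantile normalization Hspe1 passed at 0.14.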
